A study of Mus musculus with 24 samples.

Results

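The comparison described here sets the choroid plexus of 4 J20 mice against that of 4 wild-type (WT) mice at 5-6 months of age, 8 of the 24 arrays of the series, chosen by the genotype and age in the sample titles. J20 mice carry a human amyloid precursor protein transgene with the Swedish and Indiana familial Alzheimer mutations, driven by the platelet-derived growth factor B chain promoter, which is active mainly in neurons. The labels write AD for this genotype. WT mice carry no transgene. No treatment is named for either group, and the other arrays come from J20 and WT mice of 3 and 11-12 months. The series set the genotypes against each other at each age, and its title names type I and type II interferon responses.

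The choroid plexus is a sheet of epithelium over a vascular stroma that projects into the brain ventricles. Its epithelium makes cerebrospinal fluid, secretes transthyretin, clears peptides including amyloid beta, and forms the barrier between blood and cerebrospinal fluid. Macrophages and dendritic cells lie in its stroma and on its surface. Type I interferon induces antiviral genes such as Isg15 and Usp18, and type II interferon induces antigen presentation by MHC class II. In bulk tissue, fewer cells of a type and less RNA per cell cannot be told apart.

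Each value below is a log2 intensity after background correction and quantile normalization. Values run in the order of animals 4, 11, 18 and 25 for J20 and of animals 3, 10, 17 and 24 for WT, where an animal's number is the one that ends its sample title. Of 25697 probes, 11464 were detected (a detection p under 0.01) on at least 3 of the 24 arrays and were tested, for 8232 named genes. The 4 J20 arrays detected 8987 to 10335 probes and the 4 WT arrays 9274 to 10565. Pearson r over probes ran from 0.907 to 0.975 among the 6 pairs of J20 arrays and from 0.962 to 0.987 among the 6 pairs of WT arrays. J20 animals 4 and 18 stood at opposite ends of the group on the first principal component of all arrays, at -39.2 and 62.7, and J20 animal 18 had the fewest detected probes of the 24 arrays. J20 animal 11 stood apart through markers of neurons, which are described with the other cell types. BeadChip 1 (the slide that carries the arrays) held J20 animal 4 with WT animals 3 and 10, BeadChip 2 held J20 animals 11 and 18 with WT animal 17, and BeadChip 3 held J20 animal 25 with WT animal 24. No label says how littermates were divided, so p-values measure the spread between the mice of the series only. For each probe that spread was estimated within the groups of all 24 arrays, of every age. Standard errors and 95% intervals are therefore not those of the 8 arrays alone, and the SDs given are.

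The tissue label was borne out by the epithelial markers, none of which was called between the genotypes. All 27 tested markers of choroid plexus epithelium, of 35 listed, were detected on all 8 arrays. Ttr, which encodes transthyretin, ranked 3 of 25697 probes by mean level. It had log2 intensities of 15.08, 14.99, 14.96 and 14.99 in J20 mice, against 14.96, 14.99, 14.96 and 15.08 in WT mice. The groups overlapped throughout, and the log2 difference, J20 minus WT, was 0.01 (95% interval -0.20 to 0.21). At such levels quantile normalization gives all arrays the same few values, so the interval also reflects that step.

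In the comparison over all genes, limma called 0 of 11464 probes at a Benjamini-Hochberg adjusted p under 0.05 (0.0 percent), and the smallest adjusted p was 0.9999. At an unadjusted p under 0.05 it placed 144 probes (1.26 percent), 89 higher (0.776 percent) and 55 lower (0.48 percent) in J20. This is under the 5 percent that a test with no differences would place there on average. The 4 J20 values lay all above the 4 WT values for 43 probes (0.375 percent) and all below for 31 (0.27 percent), which makes 74 probes without overlap (0.645 percent). The differences themselves were small: their median size was 0.12 on the log2 scale, and 22 probes differed by more than 2-fold. The 95% interval lay within a 2-fold difference in both directions for 9913 probes (86.47 percent) and within 1.5-fold for 5626 (49.08 percent). For those probes the arrays bound the mean difference in processed signal between the genotypes at 5-6 months. For the rest a 2-fold or 1.5-fold difference was not excluded by the interval. The processing compresses differences of dim probes, so for probes near background the interval does not bound the difference in RNA.

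**Figure D1:**
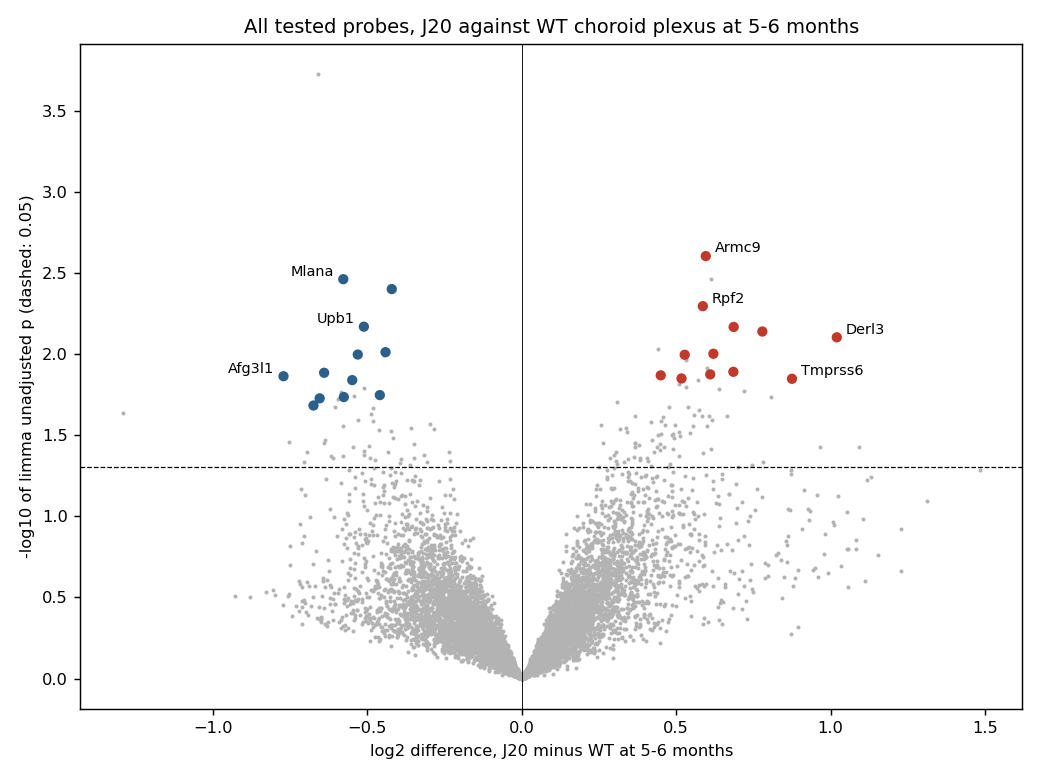
The log2 difference, J20 minus WT at 5-6 months, of each of the 11464 tested probes (horizontal axis) against the negative log10 of its unadjusted limma p (vertical axis), with red for the 12 ranked genes higher in J20, blue for the 12 lower and grey for other probes. The dashed line is an unadjusted p of 0.05, which 144 probes pass, and no probe passes after adjustment.

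J20 arrays varied more among themselves than WT arrays did. The median SD over probes was 0.32 in J20 and 0.26 in WT, and the SD was larger in J20 for 66.94 percent of probes. Without J20 animal 4 the J20 median was 0.29, without animal 18 it was 0.26, and without both it was 0.19. Animals 4 and 18 were picked as the ends of the J20 group on the first principal component, so lower values follow in part from that choice. The last value rests on J20 animals 11 and 25 only and cannot be set against the WT value. No WT arrays were left out for comparison. No test was made of this difference in spread.

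The probe with the smallest unadjusted p belonged to Fut8, which encodes the enzyme that adds core fucose to N-glycans. It is mentioned after its values were seen, since the naming rule asks for detection on at least 4 of the 8 arrays. That probe was detected on 0 of 4 J20 arrays and 1 of 4 WT arrays, with mean log2 intensities of 4.65 in J20 and 5.31 in WT, so no fold is given. A second, brighter Fut8 probe averaged 5.97 in J20 and 6.15 in WT, a log2 difference of -0.18 with a standard error of 0.28.

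Since no probe was called, the genes named next are those with the smallest unadjusted p in each direction, 12 higher and 12 lower in J20, given as values without a call. Their choice used the contrast, so their sizes are descriptive. The 12 higher genes had log2 differences of 0.45 to 1.02, and groups did not overlap for 5 of them. Of the 12 lower genes, with differences of -0.42 to -0.77, groups did not overlap for 5 also.

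Among the higher genes were members that act at cilia and in transcription. Armc9, which encodes a protein of the ciliary base, had log2 intensities of 6.21, 5.98, 6.35 and 6.13 in J20 mice, against 5.53, 5.31, 5.69 and 5.76 in WT mice. Every J20 value lay above every WT value, and the log2 difference was 0.60 with a standard error of 0.17 (limma adjusted p = 0.9999). The other 3 Armc9 probes differed by 0.21, 0.26 and -0.12, so the separation was seen on 1 probe of 4. Ift46, which encodes a subunit of the intraflagellar transport complex, averaged 6.10 ± 0.34 in J20 and 5.57 ± 0.22 in WT (SD, n = 4 each), with overlap. Meis1, which encodes a homeobox transcription factor, had log2 intensities of 7.67, 7.94, 8.20 and 7.99 in J20 mice, against 7.50, 7.19, 6.91 and 7.45 in WT mice. All 4 J20 values exceeded the WT values, and the log2 difference was 0.69 with a standard error of 0.23.

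Slc15a2 encodes the peptide transporter PEPT2, which takes up small peptides from cerebrospinal fluid at the apical side of the choroid plexus epithelium. Its log2 intensities were 5.66, 5.88, 5.67 and 5.95 in J20 mice, against 4.98, 5.11, 5.69 and 4.93 in WT mice. WT animal 17 alone reached the J20 range, and the log2 difference was 0.61 with a standard error of 0.23. Abcg4, which encodes a sterol transporter, had log2 intensities of 8.33, 8.46, 8.96 and 8.65 in J20 mice, against 8.17, 8.18, 7.97 and 8.01 in WT mice. Here the groups did not overlap, with a log2 difference of 0.52 and a standard error of 0.19. Sbk1, which encodes a serine/threonine kinase, also had no overlap and differed by 0.45 with a standard error of 0.17.

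Derl3, which encodes a channel component of endoplasmic reticulum-associated degradation, was detected on 3 of 4 J20 arrays and 1 of 4 WT arrays, so its difference is taken largely against background. Its log2 intensities were 6.02, 6.85, 4.87 and 6.86 in J20 mice, against 4.75, 4.86, 5.41 and 5.51 in WT mice. J20 animal 18 lay among the WT mice and the other 3 above them, and the mean difference was 1.02 with a standard error of 0.35. Igf1, which encodes the growth factor IGF-1, had 5.99, 6.83, 7.41 and 6.91 as log2 intensities in J20 mice, against 5.86, 5.81, 6.61 and 6.12 in WT mice. J20 animal 4 lay within the WT range and the other 3 J20 mice above it, and the log2 difference was 0.68 with a standard error of 0.25.

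Of the remaining higher genes, Rpf2, which encodes a factor of large ribosomal subunit assembly, differed by 0.59 without overlap, and its second probe by 0.40. Krt23, which encodes a keratin, differed by 0.62. Tmprss6, which encodes a membrane protease that restrains hepcidin in liver, differed by 0.87 on one probe and 0.01 on the other, which no J20 array detected. B230217C12Rik differed by 0.78. Of the 12 higher genes, 8 were not detected on every WT array: Rpf2, Derl3 and Slc15a2 were detected on 1 of 4 WT arrays, Armc9, Ift46 and Tmprss6 on 2, and Igf1 and B230217C12Rik on 3. Differences of these genes are taken against values partly at background.

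A pair of pigment cell genes stood among the lower 12. Dct, which encodes dopachrome tautomerase of melanin synthesis, had log2 intensities of 7.31, 7.24, 6.96 and 7.33 in J20 mice, against 7.86, 7.47, 8.33 and 7.73 in WT mice. Every J20 value lay below every WT value, and the log2 difference was -0.64 with a standard error of 0.24 (limma adjusted p = 0.9999). Mlana, which encodes a melanosome protein, had log2 intensities of 5.74, 4.97, 5.05 and 5.12 in J20 mice, where 1 of 4 arrays detected it, against 5.92, 6.01, 5.84 and 5.43 in WT mice, where all 4 did. J20 animal 4 lay within the WT range, and the log2 difference was -0.58 with a standard error of 0.18. Pmel, another melanosome gene, was looked at after these values were seen and averaged 6.39 in J20 and 6.24 in WT, a difference of 0.15 with a standard error of 0.15.

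Enzymes and a transporter followed. Upb1, which encodes the last enzyme of pyrimidine breakdown, had log2 intensities of 6.99, 6.66, 7.27 and 6.91 in J20 mice, against 8.12, 7.39, 7.13 and 7.24 in WT mice. J20 animal 18 and the 2 lowest WT mice overlapped. All 3 Upb1 probes were lower in J20, with log2 differences of -0.48, -0.51 and -0.54. Slc35a5, which encodes a member of the nucleotide sugar transporter family, had log2 intensities of 8.70, 8.72, 7.99 and 8.53 in J20 mice, against 9.16, 8.93, 8.88 and 8.73 in WT mice. The groups did not overlap, though J20 animal 11 lay 8.72 against 8.73 in WT animal 24. The log2 difference was -0.44 with a standard error of 0.16, and a second probe differed by -0.23.

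Cox8b, which encodes a subunit of cytochrome c oxidase, had log2 intensities of 13.56, 12.91, 13.32 and 13.16 in J20 mice, against 13.97, 13.94, 13.55 and 13.63 in WT mice. J20 animal 4 overlapped WT animal 17 by a narrow margin, and the log2 difference was -0.53 with a standard error of 0.19. Ptprf, which encodes a receptor tyrosine phosphatase of cell adhesion, had log2 intensities of 7.50, 7.09, 6.99 and 7.17 in J20 mice, against 7.53, 7.57, 8.34 and 7.92 in WT mice. Tlx2, which encodes a homeobox transcription factor, had log2 intensities of 5.88, 5.26, 6.02 and 5.88 in J20 mice, against 6.65, 6.76, 6.02 and 6.30 in WT mice. Neither gene overlapped between the groups, with log2 differences of -0.65 for Ptprf and -0.67 for Tlx2, though for Tlx2 J20 animal 18 and WT animal 17 differ only beyond the printed decimals. Mettl2, which encodes a transfer RNA methyltransferase, also showed no overlap and differed by -0.42.

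Etv5, which encodes an ETS transcription factor, was detected on 0 of 4 J20 arrays and all 4 WT arrays, so its difference is taken against background. Its log2 intensities were 5.08, 5.14, 5.96 and 5.31 in J20 mice, against 5.68, 6.20, 5.87 and 5.93 in WT mice. The groups overlapped, and the log2 difference was -0.55 with a standard error of 0.21. Afg3l1, which encodes a subunit of a mitochondrial protease, differed by -0.77 on 1 dim probe and by -0.05, -0.05 and -0.04 on 3 brighter ones. Hspb2, which encodes a small heat shock protein, differed by -0.58, and Ociad2 by -0.46.

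**Figure D2:**
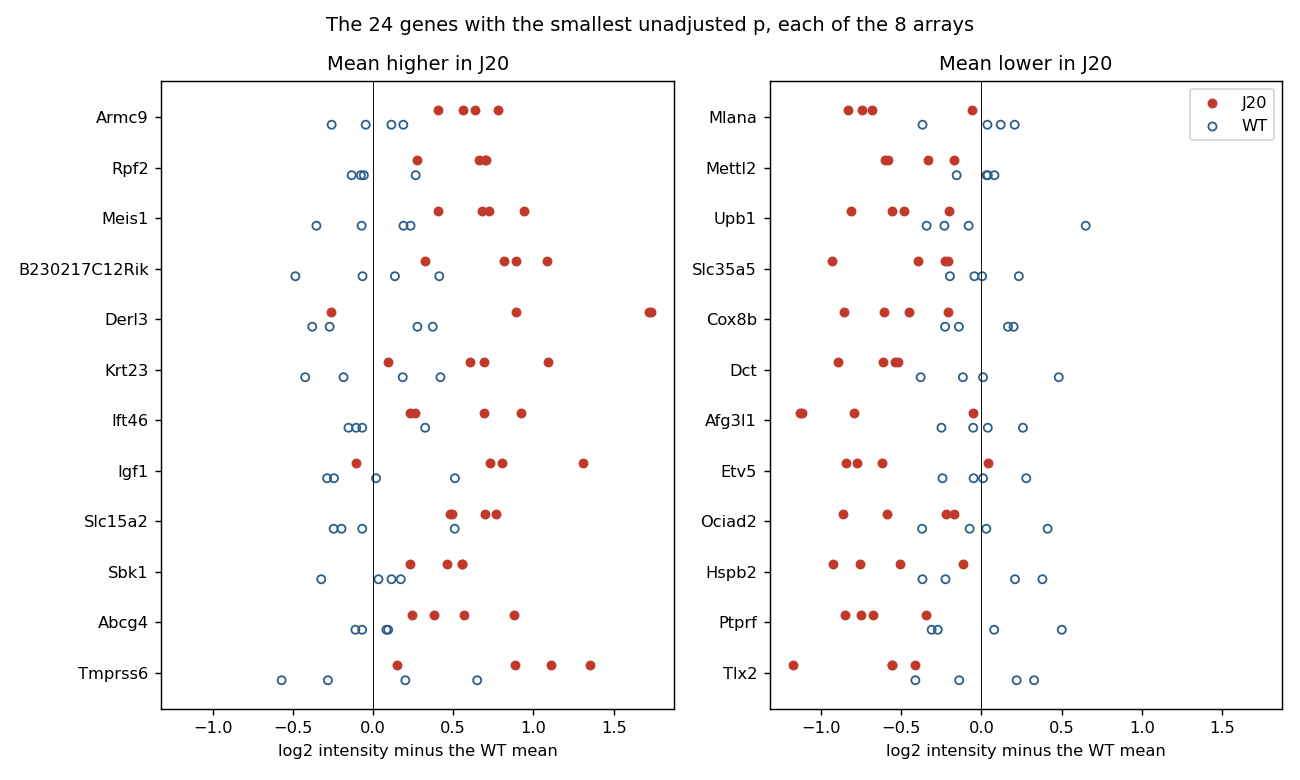
Each point is 1 array, as its log2 intensity minus the WT mean of that gene (horizontal axis), for the 12 genes with the smallest unadjusted p that were higher (left panel) and lower (right panel) in J20 mice, with filled red points for J20 and open blue points for WT. The groups do not overlap for 5 genes in each panel, and for Derl3 1 J20 array lies among the WT arrays.

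Within each of the 3 BeadChips all 12 higher genes were higher in J20. Of the 12 lower genes, 11 were lower on BeadChip 1 and all 12 on BeadChips 2 and 3. The choice of genes on these same arrays largely fixes these counts. At 11-12 months, in other mice, 10 of the 12 higher genes were higher and all 12 lower genes were lower in J20, where 53.18 percent of all tested probes were higher and 46.82 percent lower. At 3 months the counts were 6 of 12 and 7 of 12, beside 51.01 and 48.99 percent of all tested probes. These are counts of direction, without a test of the list. Groups of the other ages were of unequal size. At 11-12 months they were J20 animals 21, 28 and 35 and WT animals 5, 6, 12, 13, 26 and 34. Of these J20 mice none was on BeadChip 1, and animal 35 had the lowest mean intensity of the series. At 3 months they were J20 animals 2, 9, 16 and 23 and WT animals 1, 15 and 22.

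Interferon genes, the subject of the series' title, differed little on average between the genotypes at this age. Of 23 tested genes of the type I interferon response (44 listed), limma called 0 (0.0 percent called over all probes), 15 lay above 0 and 8 below, and the median log2 difference was 0.03. That median was -0.04 without J20 animal 11, 0.19 without J20 animal 4 and 0.15 without J20 animals 4 and 18, and -0.03 with the BeadChip as a block, so its sign depended on 1 mouse and on the block. Over all 8232 genes, with 1 probe each, the median was 0.01 and 53.02 percent lay above 0. Isg15, a ubiquitin-like modifier, had log2 intensities of 5.67, 6.11, 5.58 and 6.17 in J20 mice, against 5.86, 5.97, 5.22 and 6.35 in WT mice. The groups overlapped along most of their range, with a log2 difference of 0.03 and a 95% interval of -0.58 to 0.64. Usp18, which removes Isg15 from proteins, had log2 intensities of 6.36, 8.04, 7.24 and 7.15 in J20 mice, against 7.25, 7.01, 6.93 and 7.69 in WT mice. J20 animals supplied both the lowest and the highest value, and the difference was -0.02 (95% interval -1.02 to 0.97).

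Ifit3, which encodes an interferon-induced antiviral protein and is named outside the rule for its promoter, had log2 intensities of 6.32, 8.69, 7.55 and 7.35 in J20 mice, against 6.80, 7.28, 7.38 and 7.72 in WT mice. As with Usp18, J20 animal 11 was highest and J20 animal 4 lowest of the 8. Irf9, which encodes the DNA-binding subunit of the factor that interferon activates, averaged 7.63 ± 0.30 in J20 and 8.01 ± 0.24 in WT (SD, n = 4 each), a log2 difference of -0.37 with a standard error of 0.22. Irf7, the regulator that amplifies interferon production, was detected on 1 of 4 J20 arrays and 0 of 4 WT arrays, so no fold is given. The promoters of Isg15 and Ifit3 are shown because they carry the sequence through which interferon acts, the interferon-stimulated response element. Capitals mark matches to its core, 2 copies of GAAA with any 2 bases between them, searched on both strands with overlapping matches counted. Both come from RefSeq on build GRCm38.p6, read 5′ to 3′ along the gene, from 250 bases before to 50 after the start: Isg15 at chr4:156200769-156201068 on the minus strand, Ifit3 at chr19:34583279-34583578 on the plus strand.
Isg15: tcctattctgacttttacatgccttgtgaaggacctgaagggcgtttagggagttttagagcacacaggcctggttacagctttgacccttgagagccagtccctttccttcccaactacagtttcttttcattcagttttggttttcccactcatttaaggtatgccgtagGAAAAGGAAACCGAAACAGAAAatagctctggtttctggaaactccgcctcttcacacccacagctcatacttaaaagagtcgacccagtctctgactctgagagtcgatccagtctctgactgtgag
Ifit3: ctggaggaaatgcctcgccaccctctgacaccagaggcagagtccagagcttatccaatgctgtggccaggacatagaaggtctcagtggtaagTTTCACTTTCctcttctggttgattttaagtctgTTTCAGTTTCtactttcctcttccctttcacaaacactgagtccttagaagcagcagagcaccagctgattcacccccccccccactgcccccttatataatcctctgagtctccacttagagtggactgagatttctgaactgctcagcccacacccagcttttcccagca
The Isg15 promoter held 3 overlapping matches, from 78 to 56 bases before the start, and that of Ifit3 held 2, both on the opposite strand. The core occurred in 1131 of 32851 mouse promoters of that length (3.44 percent). A match describes letters only. No Usp18 entry was found in the promoter table used.

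Type II interferon genes had a median log2 difference of 0.03 over 13 tested genes, 7 above 0 and 6 below. Icam1, which encodes an adhesion molecule for leukocytes, averaged 8.58 ± 0.30 in J20 and 8.18 ± 0.19 in WT, and Irf1, a transcription factor that interferon gamma induces, averaged 9.60 ± 0.42 in J20 and 9.29 ± 0.17 in WT (SD, n = 4 each). Neither passed the test, and the ranges of J20 and WT overlapped for both. The 13 receptors and signal transducers of the JAK-STAT pathway had a median of -0.01. For MHC class I presentation the median over 12 genes was 0.04. B2m, the light chain of MHC class I, had log2 intensities of 12.23, 12.06, 11.83 and 12.46 in J20 mice, against 11.70, 11.86, 12.10 and 12.61 in WT mice. Psmb9, a subunit of the immunoproteasome, was the member furthest from 0, with a log2 difference of 0.43 and a standard error of 0.22.

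MHC class II genes had a median log2 difference of 0.29 over 9 tested genes of 15 listed, 6 above 0 and 3 below, and limma called 0 of them. Cd74, the invariant chain that escorts class II molecules, had log2 intensities of 10.71, 11.29, 10.98 and 10.93 in J20 mice, against 9.75, 10.95, 10.19 and 11.38 in WT mice. The highest and the lowest of the 8 values were both WT, and the log2 difference was 0.41 (95% interval -0.69 to 1.51). H2-Ab1, the class II beta chain, had log2 intensities of 10.18, 11.06, 10.56 and 10.18 in J20 mice, against 9.42, 10.27, 9.84 and 10.80 in WT mice. WT animal 3 was again the lowest of the 8. H2-Eb1, another beta chain, had log2 intensities of 9.42, 10.26, 9.87 and 9.37 in J20 mice, against 8.69, 9.29, 9.003 and 9.94 in WT mice.

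H2-Aa, the alpha chain, had log2 intensities of 6.22, 6.87, 6.96 and 6.42 in J20 mice, against 5.50, 7.10, 5.75 and 6.98 in WT mice. The lowest value of each of Cd74, H2-Ab1, H2-Eb1, H2-Aa and H2-DMa, which encodes a chain of the peptide-loading chaperone, was that of WT animal 3. Within BeadChips the list score, J20 minus WT, was 0.15, 0.52 and -0.37. The promoters of 2 of these genes are shown as examples of the sequence known from class II promoters, chosen because they hold it. Capitals mark the Y box, CTGATTGG, which binds NF-Y and is a conserved part of class II promoters. Both come from RefSeq on build GRCm38.p6, over the same window: H2-Eb1 at chr17:34305617-34305916 on the plus strand, H2-Aa at chr17:34287774-34288073 on the minus strand.
H2-Eb1: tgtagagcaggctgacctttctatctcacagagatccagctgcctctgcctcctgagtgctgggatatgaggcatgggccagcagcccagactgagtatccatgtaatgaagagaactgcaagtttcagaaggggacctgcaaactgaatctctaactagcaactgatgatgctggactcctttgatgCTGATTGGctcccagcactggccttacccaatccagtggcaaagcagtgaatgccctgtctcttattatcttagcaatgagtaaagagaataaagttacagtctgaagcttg
H2-Aa: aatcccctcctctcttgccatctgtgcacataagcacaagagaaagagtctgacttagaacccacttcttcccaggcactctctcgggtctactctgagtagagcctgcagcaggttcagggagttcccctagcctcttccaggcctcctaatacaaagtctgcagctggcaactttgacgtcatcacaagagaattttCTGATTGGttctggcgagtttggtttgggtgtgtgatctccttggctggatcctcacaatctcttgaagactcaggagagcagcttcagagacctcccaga
The Y box began 62 bases before the start in H2-Eb1 and 51 before it in H2-Aa. Searched on both strands, it occurred in 1346 of 32851 promoters (4.1 percent). Both H2-DMa promoters in the table had 0 matches, which says only that these letters are not in those windows.

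Macrophage markers stood beside the class II genes. Of 17 tested (31 listed), 15 lay above 0, with a median log2 difference of 0.24 and 0 called by limma. Laptm5, a lysosomal membrane protein of leukocytes, averaged 9.48 ± 0.58 in J20 and 8.81 ± 0.65 in WT, and C1qa, a chain of complement C1q, averaged 6.91 ± 0.36 in J20 and 6.61 ± 0.31 in WT (SD, n = 4 each). The list scores, which are means of centred log2 values, were -0.22, 0.35, 0.36 and -0.03 in J20 mice, against -0.39, -0.03, -0.29 and 0.25 in WT mice. J20 animals 11 and 18 and WT animal 24 were high. Without J20 animals 11 and 18 the macrophage median was 0.04 and the class II median 0.07. Those mice had the highest J20 scores of both lists and WT animal 24 was kept, so lower medians follow in part from that choice. Without animal 11 alone the macrophage median was 0.17 and the class II median 0.20. Without animal 18 alone they were 0.14 and 0.17. The part of macrophage number in the class II values was not tested.

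Genes of epithelial function differed little on average. The 27 epithelial markers had log2 differences of -0.24 to 0.14 with a median of -0.00145, and 26 of their 95% intervals lay within 2-fold. Aqp1, the water channel of the apical membrane, had log2 intensities of 13.12, 13.20, 13.37 and 13.33 in J20 mice, against 13.11, 13.27, 13.40 and 13.20 in WT mice. Kl, which encodes klotho, had 13.91, 13.59, 13.62 and 13.87 as log2 intensities in J20 mice, against 13.82, 13.75, 13.72 and 14.03 in WT mice. For both, the groups overlapped along most of their range. Folr1, the folate receptor, was more scattered, with 12.36, 11.49, 10.89 and 10.58 as log2 intensities in J20 mice, against 11.84, 11.03, 11.80 and 11.54 in WT mice. Otx2, a homeobox factor that maintains this epithelium, averaged 11.99 ± 0.16 in J20 and 12.23 ± 0.07 in WT (SD, n = 4 each), a log2 difference of -0.24 with a standard error of 0.17.

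Barrier genes gave a median of 0.04 over 10 tested members. Cldn2, a claudin of this epithelium's tight junctions, had log2 intensities of 12.86, 12.57, 11.87 and 12.83 in J20 mice, against 12.52, 12.35 and 12.67 in WT animals 3, 10 and 17, with WT animal 24 the highest of the 8. Cldn1 had log2 intensities of 11.13, 10.66, 9.12 and 10.69 in J20 mice, against 10.87, 10.28, 10.90 and 10.71 in WT mice. J20 animal 18 was the lowest of the 8 for both claudins. Neither gene was called.

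App, the mouse amyloid precursor protein gene, had log2 intensities of 12.56, 11.92, 11.56 and 12.71 in J20 mice, against 12.12, 12.62, 12.41 and 12.90 in WT mice. J20 animals 11 and 18 had the lowest values and WT animal 24 the highest, and the difference was -0.32 with a 95% interval of -0.92 to 0.27. The sequence of this probe was not used here, so whether it also reads the human transgene was not tested. The 25 tested genes of amyloid beta production, transport and breakdown had a median of 0.01. Plau, the urokinase that activates plasmin, was the one member without overlap, yet it was detected on 1 of 4 J20 arrays and 0 of 4 WT arrays. Sorl1, a sorting receptor for the precursor, averaged 7.09 ± 0.22 in J20 and 7.32 ± 0.27 in WT (SD, n = 4 each). Mme, which encodes the amyloid-degrading enzyme neprilysin, averaged 5.42 ± 0.50 in J20 and 5.52 ± 0.32 in WT. It was detected on 1 of 4 J20 arrays and 2 of 4 WT arrays.

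Most of the largest mean differences were carried by individual J20 mice. Of the 22 probes past 2-fold, 21 were higher in J20, for 19 named genes, and groups overlapped for all 22. J20 animal 11 was the highest of the 8 for 19 of these 21 probes, and J20 animals 11 and 18 were the 2 highest for 20. Camk2b, a neuronal protein kinase subunit, had log2 intensities of 6.00, 8.66, 7.83 and 5.30 in J20 mice, against 5.32, 6.89, 5.15 and 5.52 in WT mice. Mbp, the myelin basic protein gene, had log2 intensities of 9.67, 11.07, 9.79 and 7.18 in J20 mice, against 7.74, 9.36, 7.20 and 7.48 in WT mice on 1 probe. Its other 2 probes differed by 0.53 and -0.01 on the log2 scale. These genes were picked from the probes past 2-fold after their values were seen.

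Neuron markers pointed to the same mice. Of 22 tested (34 listed), 21 lay above 0 with a median of 0.64, and limma called 0. The list scores were -0.40, 1.61, 0.52 and -0.54 in J20 mice, against -0.56, 0.02, -0.34 and -0.31 in WT mice. Only J20 animal 11 detected all 22 markers, and it was the highest of the 8 for 20 of them. Slc17a7, a vesicular glutamate transporter, had log2 intensities of 4.80, 8.06, 6.13 and 4.89 in J20 mice, against 4.84, 5.31, 4.95 and 5.05 in WT mice, where no array detected it. Nrgn, a calmodulin-binding protein of dendrites, had log2 intensities of 5.20, 7.95, 7.12 and 4.71 in J20 mice, against 4.51, 4.97, 5.76 and 5.40 in WT mice. Without J20 animals 11 and 18 the neuron median was -0.20. Those mice had the highest neuron scores and no WT mouse was left out, so a lower median follows in part from that choice. The median was 0.19 without animal 11 alone and 0.52 without animal 18 alone.

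Oligodendrocyte markers had a median of 0.31 over 15 genes, and without J20 animals 11 and 18 it was 0.00389. Those mice had the highest scores of this list also, so that fall follows in part from leaving them out. Mag, a myelin adhesion protein, had log2 intensities of 6.25, 8.15, 7.39 and 5.47 in J20 mice, against 5.72, 6.44, 5.68 and 5.59 in WT mice. Astrocyte markers had a median of -0.03 over 10 genes. Of 24 listed lymphocyte markers, 2 passed the detection filter. J20 animal 18 had the highest erythroid and pituitary list scores, and was the highest of the 8 for 3 of 4 erythroid genes and 2 of 3 pituitary genes. Hba-a1, a haemoglobin alpha chain, had log2 intensities of 9.88, 11.93, 13.94 and 9.15 in J20 mice, against 9.56, 11.19, 10.31 and 11.29 in WT mice. Gh, growth hormone, had log2 intensities of 4.79, 7.78, 10.54 and 4.54 in J20 mice, against 4.76, 6.89, 7.86 and 4.64 in WT mice, so WT animals 10 and 17 were also high.

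Vascular markers varied between mice of both genotypes. The endothelial score was -0.62, 0.11, 0.44 and 0.08 in J20 mice, against -0.54, 0.45, 0.07 and 0.01 in WT mice, with a list median of -0.01 over 21 genes. Pericyte and smooth muscle scores were -0.72, 0.14, 0.72 and 0.14 in J20 mice, against -0.50, 0.16, 0.05 and 0.02 in WT mice. On that score J20 animals 4 and 18 held the lowest and the highest value. The median of that list was 0.13, and -0.32 without J20 animals 11 and 18, a choice that leaves out the highest score. Fibroblast genes had a median of 0.07 over 22 members, and cilia genes -0.05 over 18. What these differences in marker scores contribute to the genotype comparison was not tested.

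**Figure D3:**
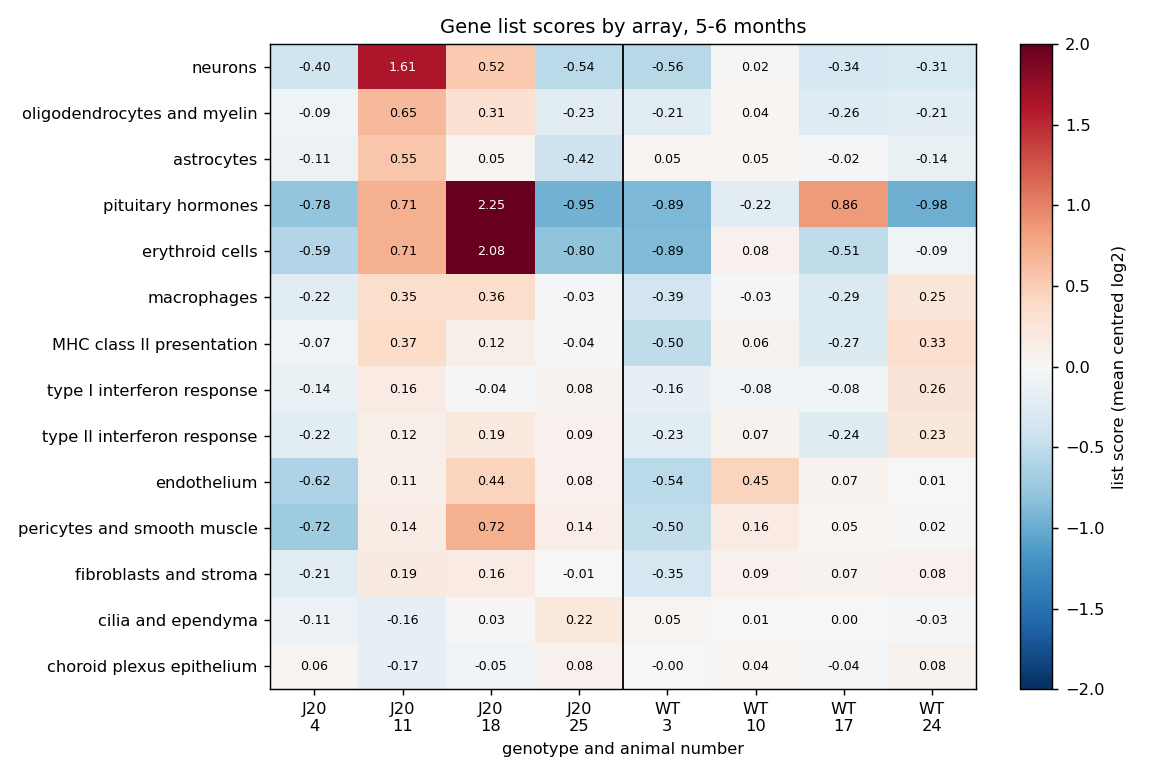
Scores of 14 gene lists (rows) on each of the 8 arrays of 5-6 months (columns, J20 on the left and WT on the right), where a score averages the members' log2 intensities after each gene is centred on the 8 arrays. J20 animal 11 is highest for neurons at 1.61 and J20 animal 18 for pituitary hormones and erythroid cells, while epithelial scores stay between -0.17 and 0.08.

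Genes of energy metabolism and translation leaned lower without calls. Of 60 tested genes of oxidative phosphorylation (66 listed), 45 lay below 0, with a median of -0.08, and limma called 0. Sdhd, an anchor subunit of complex II, had log2 intensities of 5.92, 5.50, 4.88 and 6.51 in J20 mice, against 6.70, 6.51, 6.14 and 6.24 in WT mice. J20 animal 25 lay within the WT range, and the probe was dim, detected on 2 of 4 J20 arrays and all 4 WT arrays. Of 43 tested cytosolic ribosomal protein genes 34 lay below 0, with a median of -0.08, and Rps13 differed by -0.35 with a standard error of 0.28. The lean varied by BeadChip: the oxidative phosphorylation score, J20 minus WT, was 0.10, -0.21 and -0.09, and the ribosomal score 0.14, -0.21 and -0.17. Without J20 animals 11 and 18 the medians were -0.000456 and -0.02. Without animal 18 alone both were -0.02, and without animal 11 alone they were -0.06 and -0.09. J20 animal 18 was the lowest of the 8 for 32 of the 60 oxidative phosphorylation genes and 22 of the 43 ribosomal genes.

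Stress genes lay on both sides of 0 within their pathways, without calls. Hyou1 and Hspa5, chaperones of the endoplasmic reticulum, differed by 0.52 and 0.36, while Herpud1 and Syvn1, which act in degradation from it, differed by -0.31 and -0.36. The Hspa5 probe was near background, detected on 3 of 4 J20 arrays and 2 of 4 WT arrays. Xbp1, a transcription factor of the unfolded protein response, averaged 12.55 ± 0.17 in J20 and 12.80 ± 0.24 in WT (SD, n = 4 each). The median over 18 genes of this response was 0.03. Among 16 heat shock genes the median was also 0.03, and Hsp90aa1, a cytosolic chaperone, had log2 intensities of 6.20, 7.09, 6.40 and 6.46 in J20 mice, against 5.76, 5.87, 6.22 and 6.40 in WT mice. Cat, which encodes catalase, differed by -0.47 with a standard error of 0.30, and the 35 antioxidant genes had a median of -0.02.

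Secreted mediators were scattered. Lcn2, an iron-sequestering acute phase protein, had log2 intensities of 4.46, 5.99, 4.79 and 6.00 in J20 mice, against 4.42, 4.45, 4.59 and 4.68 in WT mice. It was detected on 2 of 4 J20 arrays and 0 of 4 WT arrays. J20 animals 11 and 25 were high, J20 animal 4 lay within the WT range and J20 animal 18 just above it. Cxcl1, a neutrophil chemokine, had log2 intensities of 4.80, 6.77, 5.57 and 5.01 in J20 mice, against 4.37, 4.44, 4.81 and 4.82 in WT mice, and was detected on 1 of 4 J20 arrays and 0 of 4 WT arrays. The medians were -0.06 for 14 acute phase and iron genes and 0.13 for 15 cytokines and chemokines. Trf, transferrin, ran from 10.32 in J20 animal 18 to 13.01 in J20 animal 4, and from 11.14 to 13.01 in WT mice.

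Clock genes, which follow the time of day and for which no time of dissection was used here, had a median of -0.05 over 16 members. Dbp, an output of the clock, had log2 intensities of 10.75, 10.75, 12.17 and 12.36 in J20 mice, against 11.44, 11.21, 11.88 and 10.53 in WT mice. Arntl, the clock's activator that oscillates opposite to Dbp, had log2 intensities of 6.54, 5.57, 4.51 and 4.94 in J20 mice, against 5.70, 5.83, 5.60 and 6.26 in WT mice. J20 animals 18 and 25 had high Dbp with low Arntl. The Arntl probe was detected on 2 of 4 J20 arrays and 3 of 4 WT arrays, so its lowest values lie near background. Ciart, a repressor of the clock, averaged 5.63 ± 0.36 in J20 and 5.25 ± 0.46 in WT (SD, n = 4 each). It was detected on 2 of 4 J20 arrays and 1 of 4 WT arrays. Cdkn1a, a cell cycle inhibitor, was the cell cycle gene furthest from 0, with a log2 difference of 0.41 and a standard error of 0.21 on its brightest probe and 0.14 on each of the other 2. Immediate early genes had a median of 0.02 over 14 members, glucocorticoid-responsive genes 0.10 over 17 and sex-linked genes 0.06 over 6. The sex-linked list holds genes of both the X and the Y chromosome, so its median says nothing on the balance of the sexes. Of its Y genes, Eif2s3y differed by 0.37 without overlap, detected on 1 of 4 J20 arrays and 0 of 4 WT arrays. Kdm5d and Uty differed by 0.09 and 0.05, with overlap.

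**Figure D4:**
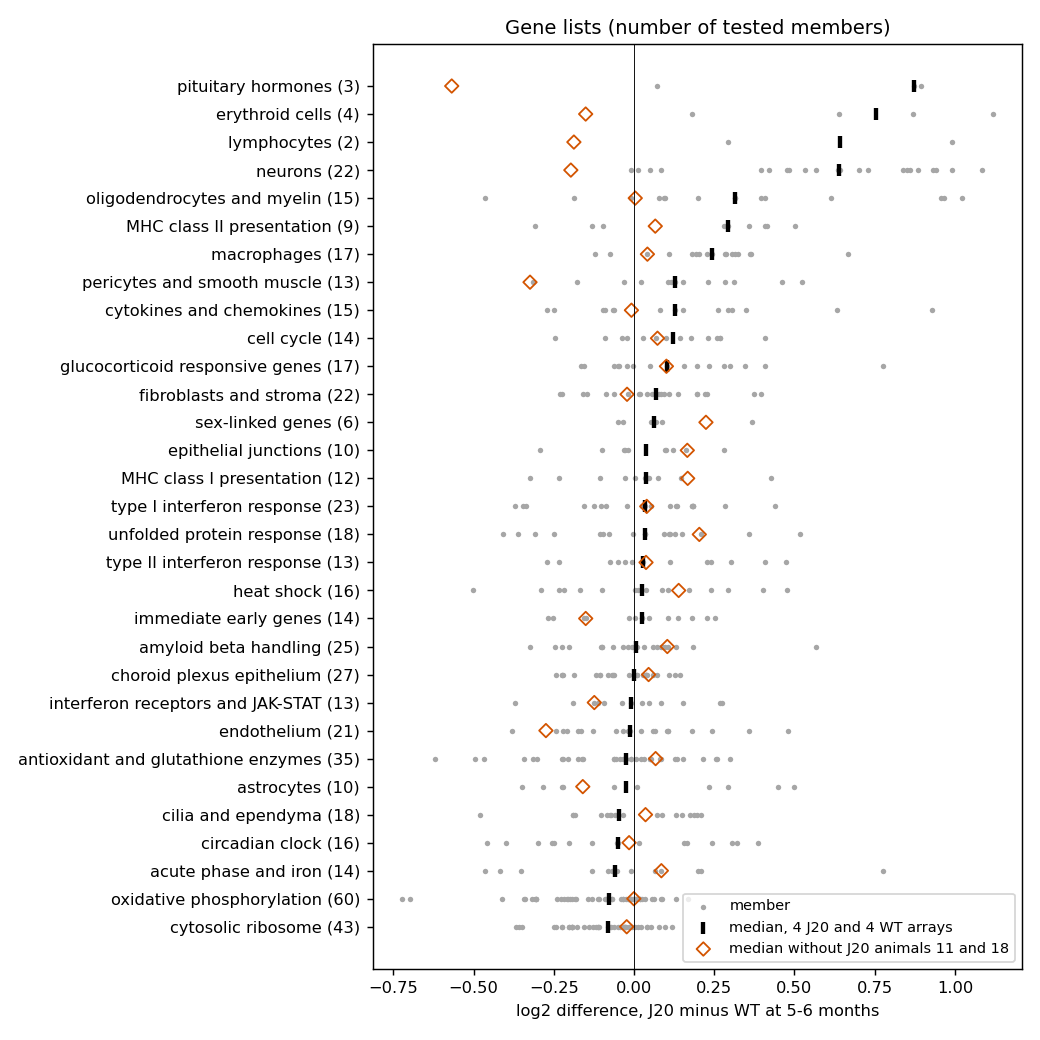
Log2 differences, J20 minus WT at 5-6 months (horizontal axis), of the tested members of 31 gene lists (grey points), with the list median over all 8 arrays (black bar) and without J20 animals 11 and 18 (orange diamond). The neuron median of 0.64 becomes -0.20 without those mice, while that of the choroid plexus epithelium stays near 0. Those mice had the highest neuron scores, so the fall of that median follows in part from the choice.

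The genotype difference at 5-6 months was set against its mean at 3 and 11-12 months in the same fit, and limma called 0 of 11464 probes (0.0 percent, smallest adjusted p = 1.0), with 127 at an unadjusted p under 0.05 (1.11 percent). No gene can therefore be called particular to this age. Gnl3l, a nucleolar GTP-binding protein, was the only probe more than 2-fold lower in J20. Its log2 intensities were 5.82, 4.69, 7.70 and 7.97 in J20 mice, against 7.85, 7.80, 7.60 and 8.08 in WT mice. J20 animals 4 and 11 were low and the other J20 mice lay with WT, a mean difference of -1.29 with a standard error of 0.53. At 3 months Gnl3l differed by 0.53 and at 11-12 months by 2.17, and the contrast of ages was -2.64 with a standard error of 0.65 (limma adjusted p = 1.0). The J20 mean of 11-12 months rests on animals 21, 28 and 35 only.

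On the higher side of this contrast stood Moap1, a modulator of apoptosis, and Armc9, with values of 0.82 and 0.69. Moap1 was detected on 3 of 4 J20 arrays and 0 of 4 WT arrays at 5-6 months, so its difference is taken against background. Its log2 difference at 5-6 months was 0.53 with a standard error of 0.19. The groups overlapped, with 5.52 in the lowest J20 mouse and 5.53 in the highest WT mouse. Ggct, an enzyme of glutathione breakdown, had 0.68 on the probe ranked here and was detected on 2 of 4 J20 and 0 of 4 WT arrays. At 5-6 months that probe differed by 0.45 and another dim probe by 0.18. A brighter Ggct probe, detected on all 4 J20 and all 4 WT arrays, differed by -0.11 at that age. On the brighter probe the difference was 0.50 at 3 months and -0.32 at 11-12 months. Snrk, a protein kinase, had 0.45. On the lower side Nmd3, an export adaptor of the large ribosomal subunit, had -0.74, Lrfn4, a synaptic adhesion protein, -0.87, and Zfp423, a zinc finger transcription factor, -0.69. At 5-6 months Nmd3 was detected on 0 of 4 J20 arrays and 2 of 4 WT arrays, and Lrfn4 on 1 of 4 J20 arrays and 2 of 4 WT arrays, so their values rest on signal near background.

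Across the ages the values of single genes were as follows. Slc35a5 differed by -0.21 at 3 months, -0.44 at 5-6 months and -0.61 at 11-12 months, lower in J20 each time. Slc15a2 differed by 0.95, 0.61 and 0.36 at the same ages. Derl3 stood at -0.03, 1.02 and 0.84, and Igf1 at -0.27, 0.68 and 0.59. Isg15 was 0.79 at 3 months, 0.03 at 5-6 months and 0.23 at 11-12 months, and Usp18 0.72, -0.02 and -0.14. None of these passed the test at 5-6 months or in the contrast of the ages.

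**Figure D5:**
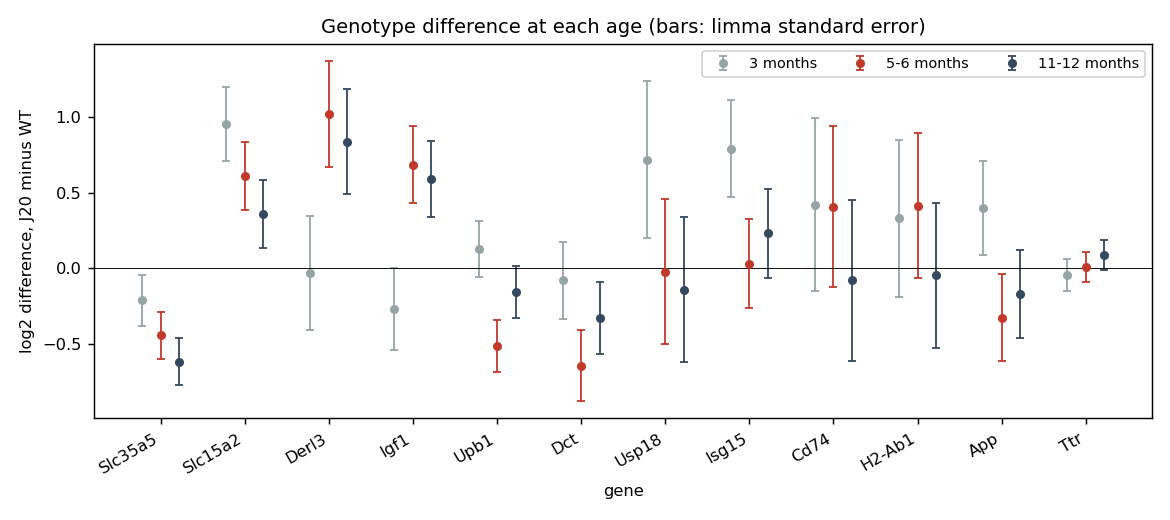
The log2 difference, J20 minus WT, of 12 genes (horizontal axis) at 3, 5-6 and 11-12 months, with bars for limma's standard error. Isg15 and Usp18 lie near 0 at 5-6 months, at 0.03 and -0.02, and Slc35a5 is below 0 at each age.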

How the data were processed

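RNA of choroid plexus tissue was extracted with an RNeasy Plus Micro kit and hybridised as biotin-labelled cRNA to Illumina arrays, 1 per animal, per the labels. Per the file headers, the non-normalized table gives a linear probe intensity and a detection p-value for each of 24 arrays. The authors also deposited log2 values, which equal the quantile-normalized log2 of those intensities to within 5e-09. No source used here gives the scanner, its software, the animals' sex or the hour of dissection.

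The main setting was the neqc function of limma (version 3.58.1, under R 4.3.3): normexp correction with controls inferred from detection p-values, an offset of 16, then quantile normalization and log2, which compresses differences of dim probes. A single model of 24 arrays with a mean per genotype and age gave all contrasts, adjusted by Benjamini-Hochberg over 11464 probes at 0.05. Its test was tried on simulated data. The probe table of the series names 23978 probes by 1 symbol and 1719 by none, and 23962 were matched to RefSeq by gene identifier, which changed 0 symbols. No 2 arrays held identical values. The number of arrays limits the precision.

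Ranked genes are the 12 per direction with the smallest unadjusted p among probes detected on at least 4 of the 8 arrays. Further names are up to 4 per direction from the contrast of ages, up to 4 per gene list, and a set of named genes, of which Lrp2 lay below the detection filter and 1 item is not reported here. A list takes the brightest probe per gene. The members and lists were chosen with earlier results of these data known. Alternatives were the BeadChip as a block, array weights, the 8 arrays alone, no background correction, an offset of 50, median scaling, no detection filter, a filter on the 8 arrays, a trended robust variance, and each array left out. Added after seeing the data were the first principal component (48.85 percent of the variance) as a covariate and the 2 pairs of J20 animals left out.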

Additional observations from a re-analysis of the deposited data

Results flagged for a closer look

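In 12 of 332 groups of 4 mice looked at (3.61 percent), 1 mouse stood farther from the others than Dixon's 95% limit allows, and chance places about 1 group in 20 there. All values are log2 intensities. WT animal 10 supplied 6 of the 12. Its Psme2, a proteasome activator subunit, was 8.263 against 9.278 to 9.377 in the other WT mice, its Ift88, an intraflagellar transport protein, 7.953 against 8.166 to 8.203, and its Nfe2l2, a regulator of antioxidant genes, 4.739 against 5.559 to 5.704. Podxl, a sialomucin of endothelium, was 8.107 in WT animal 10 against 6.917 to 7.107, Mag, a myelin protein, 6.44 against 5.586 to 5.721, and Gja1, the gap junction protein connexin 43, 9.838 against 9.179 to 9.273. WT animal 17 had 6.862 for Prl, prolactin, against 4.45 to 4.794.

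Among J20 mice, animal 4 had 8.074 for Irf9 against 7.464 to 7.528 in the others, and 5.718 for Parp14, an interferon-induced ADP-ribosyltransferase, against 6.573 to 6.641. Animal 18 had 7.411 for Sorl1 against 6.952 to 7.01, and 6.402 for Ly6c1, a surface protein of endothelium, against 7.538 to 7.647. Animal 25 had 5.612 for Rpf2 against 5.999 to 6.043.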

How the results depend on the processing

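For both contrasts limma called 0 probes under every alternative run. Counts at an unadjusted p under 0.05 in J20 against WT, 144 as reported, were 483 without J20 animal 4, 320 with array weights, 287 with the first principal component as a covariate, 639 of 25697 probes without the detection filter and 88 with median scaling, and ran from 100 to 196 under the others. Without any 1 array the smallest adjusted p ran from 0.1133 (without WT animal 17) to 0.9998. In the contrast of ages the count, 127 as reported, ran from 77 to 327, with 604 of 25697 probes without the filter.

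Of 166 named genes, 115 kept their sign in every alternative, and 100 of 3286 values changed it. The values that changed sign by more than the spread between replicates were all without J20 animals 11 and 18: Cd86 was then -0.1285, Klrb1c -0.09618, Thy1 -0.2785, Cxcl16 -0.001902, Cdh5 -0.1523, Col6a1 -0.2719, Slc17a7 -0.1908, Slc17a6 -0.247, Nrgn -0.2069, Mobp -0.002955, Gja1 -0.4118, Hba-a1 -1.072 and Gstm2 -0.02123. The construction of this alternative, which leaves out the pair with the highest neuron score, bears on the neuronal and myelin genes among them. For the rest the cause was not tested. Medians of 7 of 31 lists kept their sign throughout. Without J20 animals 11 and 18 the list median was -0.1873 for lymphocytes, -0.568 for pituitary hormones, 0.1661 for junctions and 0.08527 for acute phase and iron, and without J20 animals 4 and 18 that of type II interferon was 0.2386.

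No paired analysis was possible because J20 and WT animals share no numbers. Signal over background limits dim probes, and with 4 mice per group the 95% interval reached past 1.5-fold for more probes than it stayed within.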
